A study of Mus musculus with 8 samples.

Results

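The 10 genes described here encode the cell-surface receptors of BMP9/10 and of TGF-beta: the type I receptors Acvrl1 (ALK1), Acvr1 (ALK2), Bmpr1a (ALK3) and Tgfbr1 (ALK5), the type II receptors Bmpr2, Acvr2a, Acvr2b and Tgfbr2, and the co-receptors Eng (endoglin) and Tgfbr3 (betaglycan). They were chosen by name from the 21887 protein-coding genes of the RefSeq annotation of GRCm38.p6, the assembly behind mm10. A SMAD4 peak was counted for a gene when its summit lay inside the gene body or within 100 kb of it. By this rule 3 of the 10 genes had a peak. These were Eng in both conditions, and Bmpr2 and Acvr2b only in the longer list from stimulated cells. The other 7 had none in either condition. Over the whole annotation, 13.1% of genes had such a peak without BMP9/10 and 36.5% with it. When the stimulated list was shortened to 1133 peaks, the length of the other, Eng alone kept a peak. A site without a call has no value, so the peaks at Bmpr2 and Acvr2b are not a measured gain.

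SMAD4 occupancy was mapped by ChIP-seq in MS1, an established mouse endothelial cell line from pancreatic islets. All cells went without serum for 24 h, and then received either fresh medium (unstimulated) or recombinant BMP9/10 at 1 ng/mL (stimulated) for a time that the sources used here do not state. Each condition had 2 SMAD4 immunoprecipitates (IP) and 2 input libraries, 8 libraries in 4 groups, and the authors pooled them before calling 1 list of peaks per condition. An unexplained KD stands in the titles of both stimulated IP libraries, so their stimulated state rests on their descriptions. Nothing says that the 2 libraries of a group came from separate cultures. The unstimulated list held 1133 peaks from 52971023 filtered IP tags. The list from stimulated cells held 4333, from 41044888 tags. Because of the pooling no value has a replicate error, the conditions are compared without a test, and the intervals below reflect counting error alone.

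BMP9 and BMP10 circulate in blood and bind a complex of ALK1, a type II receptor and endoglin on endothelial cells. The type II receptor phosphorylates the type I receptor, which in turn phosphorylates SMAD1, SMAD5 and SMAD9. These enter the nucleus with SMAD4. TGF-beta uses TGFBR2 and ALK5 and acts mainly through SMAD2 and SMAD3, which also pair with SMAD4. Loss of ENG or ACVRL1 function causes hereditary haemorrhagic telangiectasia, and BMPR2 is the main gene of heritable pulmonary arterial hypertension. The peak lists show where SMAD4 was bound, not how much of a receptor was made, and whether a peak acts on a receptor gene was not tested.

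No SMAD4 peak covered the start of any receptor gene for which RefSeq (GRCm38.p6) supplied a promoter sequence here, 250 bases before to 50 bases after the start. These were 9 windows of 8 genes, without Acvrl1 and Tgfbr3. Over all 32851 promoter windows, 0.426% overlapped an unstimulated and 2.23% a stimulated peak. The 250 bases before the start are shown for Eng and Bmpr2, the genes with a peak inside their body, and for Tgfbr1, which shares a motif with Bmpr2 but had no peak nearby. Each runs 5′ to 3′ on the plus strand, at chr2:32646345-32646594 for Eng, chr1:59764029-59764278 for Bmpr2 and chr4:47352972-47353221 for Tgfbr1, which has a further window inside its body. Capitals mark, on either strand, the SMAD-recognised letters GTCTG, the palindromic element of BMP-responsive genes written GGCGCC, or the related GC-rich element that reads GGCTCC on one strand.
Eng: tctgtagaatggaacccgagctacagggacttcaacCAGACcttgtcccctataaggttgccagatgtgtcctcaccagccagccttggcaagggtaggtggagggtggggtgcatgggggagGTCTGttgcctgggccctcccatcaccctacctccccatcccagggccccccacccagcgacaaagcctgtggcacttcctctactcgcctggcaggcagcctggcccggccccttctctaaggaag
Bmpr2: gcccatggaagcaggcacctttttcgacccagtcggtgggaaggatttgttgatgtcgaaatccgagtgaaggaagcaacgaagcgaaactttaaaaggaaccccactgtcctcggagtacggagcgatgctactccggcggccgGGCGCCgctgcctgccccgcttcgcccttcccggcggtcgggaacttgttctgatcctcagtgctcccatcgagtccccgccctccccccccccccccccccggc
Tgfbr1: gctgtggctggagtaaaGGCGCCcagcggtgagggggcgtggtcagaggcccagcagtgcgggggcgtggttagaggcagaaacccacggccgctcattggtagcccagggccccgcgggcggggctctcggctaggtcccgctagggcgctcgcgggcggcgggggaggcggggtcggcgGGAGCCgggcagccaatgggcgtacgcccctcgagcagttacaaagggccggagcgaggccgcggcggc

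The Eng promoter held GTCTG at 214 (opposite strand) and 127 bases before the start and neither GC-rich motif. The Bmpr2 promoter held the palindrome GGCGCC at 105 bases before the start. In Tgfbr1, GGCGCC began 233 bases and GGCTCC (opposite strand) 69 bases before the start. Of the 9 receptor windows 5 held GTCTG (49.6% of all promoter windows did), 3 held GGCGCC (11.9% of all), at Bmpr2, Bmpr1a and Tgfbr1, and 5 held GGCTCC (30.8% of all). None held the palindrome GTCTAGAC (0.213% of all), nor GGCGCC followed after 5 bases by GTCT (0.0731% of all). The receptor windows had a median GC content of 73.3%, against 52.7% over all windows, and its part in the motif counts was not tested. So GGCGCC stood in the promoters of Bmpr1a and Tgfbr1, without a peak within 100 kb, as well as in that of Bmpr2. A match is a description of the letters, not a binding site.

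Eng encodes the co-receptor that presents BMP9 and BMP10 to ALK1. The gene (Entrez 13805) spans chromosome 2, 32646595 to 32682669, on mm10, and its start is the lower coordinate. It had 4 peaks within 100 kb in each list, and the 4 unstimulated peaks overlapped the 4 stimulated ones. Ordered along transcription, the stimulated summits lay 8.41 kb upstream of the start, 9.38 and 15.2 kb downstream of it inside the gene body, and 82.1 kb downstream. Eng was the nearest protein-coding gene to both summits inside its body. The upstream summit was nearer to Ak1 (3.12 kb), which encodes an adenylate kinase, and the distal one lay inside Sh2d3c, 46.1 kb beyond the end of Eng. Exon positions were not used here, so whether the inner sites are exonic or intronic is not stated. Enhancers upstream of Eng and within it have been described in endothelial cells, and whether these peaks cover them was not tested.

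**Figure D1:**
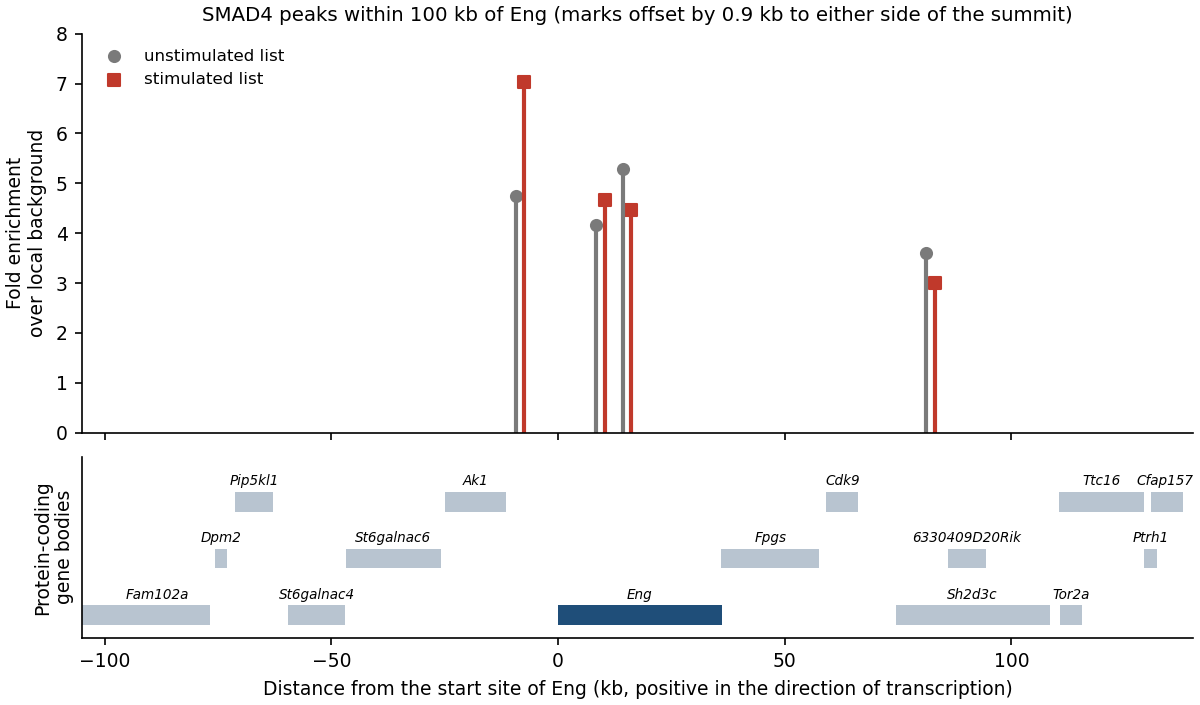
Top: the deposited fold enrichment over local background (y axis) of each SMAD4 peak within 100 kb of Eng against the distance of its summit from the Eng start site in kb (x axis), grey circles for the unstimulated and red squares for the stimulated list. Bottom: protein-coding gene bodies on the same axis, Eng in dark blue. The 4 sites were found in both lists, 2 of them inside Eng, and fold enrichment was higher in the stimulated list at the 2 sites on the left and lower at the 2 on the right.

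Pileup, the number of 100 bp extended IP tags over a summit, was higher per tag after BMP9/10 at all 4 Eng sites. So it was at most of the 1078 shared pairs of peaks in the whole lists, where the lower quartile of the ratio was 1.29. With 1 pool per condition, a response to BMP9/10 cannot be told apart from a difference between the pooled libraries. At the upstream site (chromosome 2, 32638056 to 32638264 in the stimulated list) the pileup was 44 without and 51 with BMP9/10, or 0.831 and 1.24 per 1000000 filtered IP tags. The stimulated value was 1.496 times the unstimulated one, with a 95% counting interval of 0.980 to 2.29. The first Eng site in the gene body (32655815 to 32656220) had pileups of 53 and 55, or 1.00 and 1.34 per 1000000 tags, a ratio of 1.34 (0.902 to 1.99). It was the tallest of the receptor sites in both lists.

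The second site in the gene body (32661634 to 32662078) had pileups of 36 and 48, or 0.680 and 1.17 per 1000000 tags, a ratio of 1.72 (1.09 to 2.73). At the site inside Sh2d3c (32728583 to 32728770) they were 35 and 38, or 0.661 and 0.926, a ratio of 1.40 (0.862 to 2.28). The interval lay above 1 at 1 of the 4 sites, the one 15.2 kb downstream of the start, and 36.6% of all 1078 shared pairs of peaks outside mitochondrial DNA had such an interval. Over all these pairs the median ratio was 1.47 (interquartile range 1.29 to 1.68). In the order above, 46.1%, 70.0%, 19.3% and 61.5% of pairs had a higher ratio than the Eng site. The Eng sites lay on both sides of that median.

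**Figure D2:**
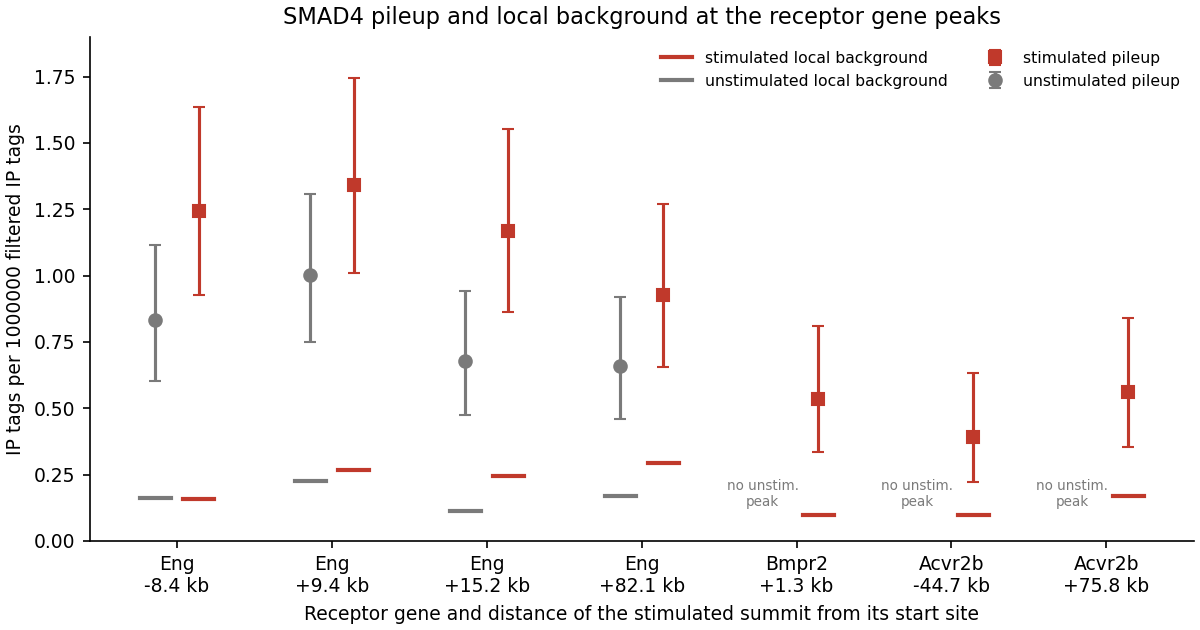
Pileup at the summit (points, with exact Poisson 95% intervals that cover counting error only) and local background (horizontal bars), both in IP tags per 1000000 filtered IP tags (y axis), at the 7 sites within 100 kb of a receptor gene, labelled by the distance of the stimulated summit from the gene's start (x axis). Grey circles are unstimulated and red squares stimulated. The Eng sites reached 0.926 to 1.34 in the stimulated list, and the 3 sites at Bmpr2 and Acvr2b 0.390 to 0.560, with no unstimulated peak.

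Fold enrichment over local background gave another order than pileup. The deposited values, unstimulated then stimulated, were 4.74 and 7.03 upstream of Eng, and 4.15 and 4.67 at the first site in the gene body. They were 5.29 and 4.45 at the second site in the body, and 3.60 and 3.0 inside Sh2d3c. So 2 of the 4 Eng sites had the lower fold enrichment after BMP9/10, as did 17.3% of all shared pairs. The local background per tag was 2.15 times as high in the stimulated list at the second site in the body and 1.72 times as high inside Sh2d3c, against 0.972 and 1.18 times at the first 2 sites. Over all pairs the median was 1.00, with the middle 90% of pairs between 0.594 and 1.84, and 2.23% of pairs exceeded the 2.15 of the second site in the body. With the background subtracted from each pileup, the 4 ratios were 1.62, 1.38, 1.63 and 1.29.

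**Figure D3:**
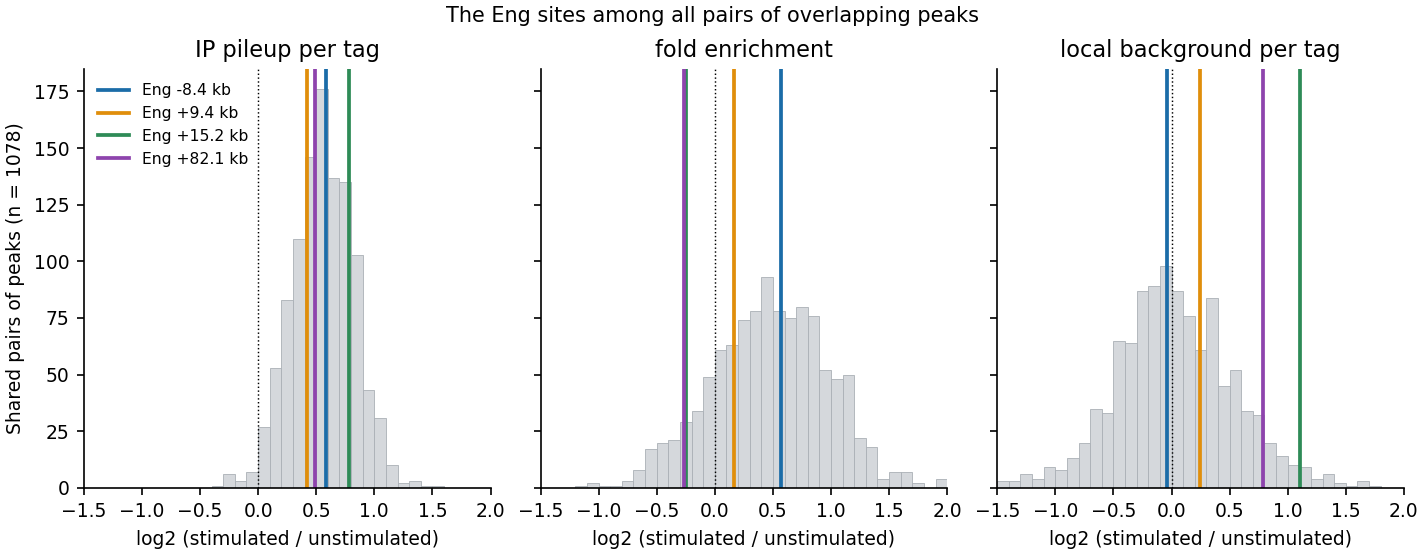
Histograms of log2 of the stimulated over the unstimulated value (x axis) for all 1078 pairs of overlapping peaks (y axis, number of pairs, with values beyond the axis in its end bins), for IP pileup per tag, fold enrichment and local background per tag. Coloured lines mark the 4 Eng sites by distance from the start, and the dotted line marks no difference. For pileup the Eng lines lie to the right of it, as do most pairs. They lie on both sides of it for fold enrichment, and for background the 2 downstream-most sites lie far to the right.

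Within the stimulated list, the upstream Eng site stood near the top, with 10.2% of peaks above its fold enrichment and 6.39% above its −log10 q of 23.6. The sites in the gene body were close to the middle by fold enrichment (46.5% and 52.5% of peaks higher) and near the top by pileup (5.86% and 10.0% higher). The distal site was low by fold enrichment (91.9% higher). In the unstimulated list the second site in the body led by fold enrichment, with 19.0% of peaks higher, and the upstream one followed with 28.6%. Paired summits were 15 to 76 bp apart, against a median of 31 bp over all pairs. The 2 sites in the gene body were wide, at 406 and 445 bp in the stimulated list, where the median width was 207 bp.

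Few genes had as many peaks as Eng. At least 4 unstimulated summits within 100 kb were found at 0.320% of all protein-coding genes, and at least 4 stimulated ones at 3.99%. The trait was not particular to Eng among related genes. Smad6 (7 unstimulated and 11 stimulated) and the endothelial marker Egfl7 (4 and 7) also had at least 4 in both lists. Smad1, Smad4, Smad5, Smad7, Smurf2, Kdr and Pecam1 had at least 4 in the stimulated list only. The Eng window was rich in genes, with 14 other protein-coding genes reaching into it, against 1 to 7 for the other receptors. A further 36 genes were, like Eng, nearest to 2 peaks in each list. Among them Zfp3 (strongest fold enrichment 4.79 unstimulated and 5.0 stimulated), Ehd3 (5.14 and 5.60) and Kcnip1 (4.62 and 4.29) were closest to Eng (5.29 and 4.67) by the summed difference of log2 fold enrichment, from 0.24 to 0.32 over the 2 lists.

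Bmpr2, the type II receptor that binds BMP9 and BMP10 with ALK1, had 1 peak, in the stimulated list. It lay inside the gene body (Entrez 12168, chromosome 1, 59764279 to 59878081), at 59765429 to 59765615, with its summit 1.26 kb downstream of the start. Bmpr2 was therefore the nearest gene. The pileup was 22, or 0.536 per 1000000 tags (0.336 to 0.812), over a local background of 0.0975, and the fold enrichment was 4.60 with a −log10 q of 6.30. The peak stood in the middle of the list by fold enrichment (48.3% of peaks higher) and low by pileup (74.2% higher). The closest unstimulated summit was 1496 kb away, nearest to Pard3b. A peak list gives no value at a site without a call, so the unstimulated level at the Bmpr2 site is not known here.

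The pileup at which the unstimulated list would have called the Bmpr2 site depends on the background there. With the stimulated background per tag, the unstimulated list would have called a pileup of 19, and the stimulated level corresponds to 28.4 at its depth, 1.58 times the largest pileup missed. With backgrounds at the ends of the middle 90% of shared pairs, that factor was 1.14 to 2.18. Over the 3245 stimulated peaks without an unstimulated counterpart the median factor was 1.55 (interquartile range 1.34 to 1.81), and 46.1% were above Bmpr2. These factors rest on an assumed background and leave out the counting error of the 22 tags. The peaks were also selected by a call in the stimulated list alone, which by itself favours high factors. So the factors are neither a measured ratio nor a lower bound of one for Bmpr2.

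Acvr2b, a type II receptor for activins and several BMPs, had 2 stimulated and no unstimulated peaks, and was the nearest gene to neither. The gene (Entrez 11481) spans chromosome 9, 119401583 to 119442148. One peak (119357402 to 119357618) lay 44.1 kb before it, inside Xylb, a xylulokinase gene, with a pileup of 16, a fold enrichment of 3.40 and a −log10 q of 2.44. The other lay 35.8 kb beyond it, with a pileup of 23, a fold enrichment of 3.0 and a −log10 q of 2.85. Both were among the weakest of the list: 96.5% and 93.6% of stimulated peaks had a higher −log10 q. Their factors, computed as for Bmpr2, were 1.15 (0.826 to 1.59) and 1.14 (0.825 to 1.65), so at the highest background considered, an unstimulated level equal to the stimulated one would have gone uncalled. At least 2 stimulated summits within 100 kb were found at 16.2% of all genes. The closest unstimulated summit was 569 kb from Acvr2b.

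Acvrl1 encodes ALK1, the type I receptor that binds BMP9 and BMP10 with high affinity. It had no peak within 100 kb, but a shared pair lay just outside, with summits 101.19 kb (unstimulated) and 101.26 kb (stimulated) beyond the gene body (Entrez 11482, chromosome 15, 101128522 to 101145336). Its pileup was 27 unstimulated and 36 stimulated, or 0.510 and 0.877 per 1000000 tags, a ratio of 1.72 (1.02 to 2.95). A higher ratio was found in 19.3% of all shared pairs, and 36.6% of them had an interval above 1. Its fold enrichment was 3.11 and 6.98, over a local background per tag that was 0.694 times as high in the stimulated list. The peak was nearest to Nr4a1, an orphan nuclear receptor gene (7.30 kb), and lay 32.9 kb from Acvr1b, which encodes the activin type I receptor ALK4. The next stimulated summit was 109 kb from Acvrl1. Among peaks inside the window, the farthest from a receptor gene was the Sh2d3c site of Eng, at 46.1 kb.

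The remaining receptors had no SMAD4 peak near them. Tgfbr2, the type II receptor for TGF-beta (Entrez 21813, chromosome 9, 116087695 to 116175363), had its closest stimulated summit 144 kb away. Tgfbr2 was still the nearest gene to that peak, whose fold enrichment was 3.0. For Bmpr1a, the BMP type I receptor ALK3 (Entrez 12166, chromosome 14, 34411061 to 34503336), the closest stimulated summit lay 195 kb away beside Syt15. The distances were 671 kb for Tgfbr3, the TGF-beta co-receptor (Entrez 21814, chromosome 5, 107106567 to 107289629), and 813 kb for Tgfbr1, the TGF-beta type I receptor (Entrez 21812, chromosome 4, 47353222 to 47414926). Acvr2a, an activin and BMP type II receptor (Entrez 11480, chromosome 2, 48814109 to 48903264), and Acvr1, the type I receptor ALK2 (Entrez 11477, chromosome 2, 58446438 to 58566828), had theirs at 706 and 1322 kb. In the unstimulated list these 6 genes had their closest summits between 776 kb (Tgfbr3) and 11931 kb (Acvr1).

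**Figure D4:**
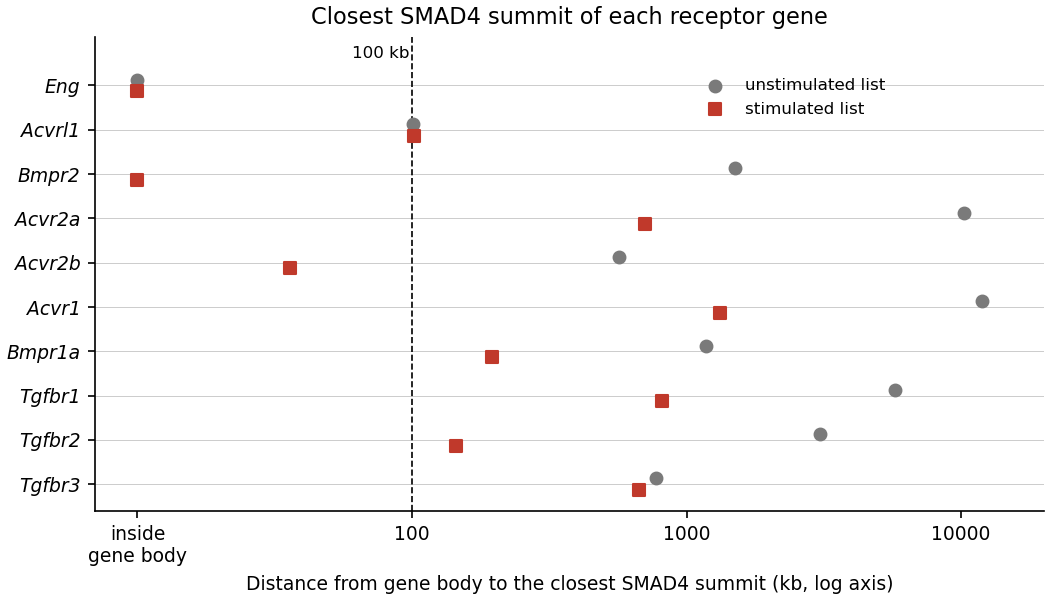
Distance in kb (x axis, log scale, with summits inside the gene body drawn at the left end) from each of the 10 receptor gene bodies (y axis) to the closest SMAD4 summit, grey circles for the unstimulated and red squares for the stimulated list; the dashed line marks 100 kb. Eng has a summit inside its body in both lists, Bmpr2 in the stimulated list, and both Acvrl1 summits lie just outside 100 kb.

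The counts of receptor genes with a SMAD4 peak within 100 kb lay near the shares over all genes, but are too small to show that they are alike. A summit within 100 kb was found at 1 of 10 in the unstimulated list, against 13.1% of all protein-coding genes, and at 3 of 10 in the stimulated list, against 36.5%. Genes whose windows were within 1.5 times the length of a receptor's had such a summit in 13.0% to 15.0% and 36.1% to 42.1% of cases. A receptor was the nearest gene to a summit within 100 kb for 1 of 10 (3.79% of all genes) and 2 of 10 (12.2%). Summits lay inside the gene body of 1 of 10 (1.98% of all genes) and 2 of 10 (7.08%), Eng and then Eng with Bmpr2. These counts are too small to set the receptors apart from the background in either direction. Unlike the window shares, the nearest-gene and gene-body shares were not matched for gene length. The median distance to the closest stimulated summit was 170 kb for the receptors and 183 kb for all genes, and 4 of 10 receptors and 26.8% of genes lay over 500 kb from one. In the unstimulated list the receptors lay farther away by the median, 1337 kb against 785 kb over the 21631 genes on chromosomes with a peak. There 8 of 10 receptors and 60.9% of genes lay over 500 kb from a summit.

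Peaks in the receptor windows belonged mostly to Eng. The 10 windows covered 2.84 Mb and held 4 unstimulated and 7 stimulated peaks, or 1.41 and 2.46 per Mb. Up to the last gene of each chromosome the whole lists held 0.415 and 1.59 per Mb. That span includes stretches far from any gene, so it is not the density in windows around other genes. Without Eng, 9 windows of 2.61 Mb held 0 and 3, the latter 1.15 per Mb, so the higher density over all 10 windows came from the Eng locus. Of the 7 stimulated receptor peaks, 4 overlapped an unstimulated one (57.1%, exact binomial 95% interval 18.4 to 90.1), against 25% of the whole stimulated list. All 4 were at Eng, so the share describes 1 locus. The interval takes the peaks as independent, which peaks of 1 locus need not be, so it does not measure uncertainty over receptor genes.

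A site without a peak is not a site without SMAD4. At the genome-wide background a pileup of 14 unstimulated or 11 stimulated tags was needed for a call, or 0.264 and 0.268 per 1000000 tags. At the median background of called peaks it was 25 and 19, or 0.472 and 0.463 per 1000000 tags. Binding below such levels was not detectable at this depth near the 7 receptor genes without a peak.

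The genes of the pathway downstream of the receptors had these peaks. Of the 6 receptor-activated and common SMAD genes, 3 had an unstimulated and 5 a stimulated summit within 100 kb, against the 13.1% and 36.5% of all genes. Those with a stimulated summit were Smad4, the common SMAD itself (strongest stimulated fold enrichment 9.08), Smad1 (6.58), Smad3 (6.33) and Smad2 (4.60), while at Smad5 the strongest (12.2) was nearest to Tgfbi. All 6 genes of inhibitory SMADs and receptor turnover had a stimulated and 4 an unstimulated one, beside the same shares of all genes. They included Smad6 (13.0), Smad7 (10.0) and Fkbp1a (10.8, 0.030 kb from the gene body), whose product FKBP12 binds type I receptors and holds them inactive. Smurf1 (5.80) and Smurf2 (7.71), ubiquitin ligases that act on these receptors, had their strongest peaks nearest to Kpna7 and Kpna2. Usp15, a deubiquitinase of the pathway, had 1 peak (8.0), nearest to Mon2. These lists, like the receptors, were chosen with earlier results of these data known.

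Of 11 ligand genes, Bmp4 and Tgfb2 were nearest to a stimulated peak within 100 kb, as were 12.2% of all genes. Of these 11 genes, 1 had an unstimulated and 6 a stimulated summit within 100 kb, beside 13.1% and 36.5% of all genes. The same shares apply to the lists that follow. Bmp4 had 1 inside the gene body (6.29) and Tgfb2 had 2, the stronger 18.4 kb away (3.86). The peaks at Tgfb1, Tgfb3, Bmp6 and Inhbb were nearest to other genes. Gdf2, which encodes BMP9, and Bmp10 had none. Among 4 other type I and type II receptor genes, Acvr1b and Amhr2 had a stimulated summit and were not the nearest gene. Of 5 matched co-receptor and decoy genes (Bambi, Rgma, Rgmb, Hjv and Tdgf1) 0 had a summit in either list. Of 9 extracellular modulators, 0 had an unstimulated and 4 a stimulated summit, with Bmper (3.33), Ltbp1 (nearest to 1 of 3) and Thbs1 (3.74) the nearest gene to one. Of 41 pathway genes in all, 9 had an unstimulated and 23 a stimulated summit, where 13.1% and 36.5% of all genes did. Of 8 endothelial markers 6 and 7 had one, beside the same shares. Tie1 had none in either list, and Tek none in the unstimulated list. A peak is no measure of expression and was not used to check the cell line.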

How the data were processed

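SMAD4 ChIP-seq and input libraries of 4 groups were deposited as 1 list of peaks per condition. The authors called peaks with MACS2 2.1.0.20140616 on pooled libraries, per the file headers: at most 1 tag per position, tags extended to 100 bp, a q cutoff of 0.01, and local background over 1000 and 10000 bp. Band width was 300 (unstimulated) and 200 (stimulated). Per the submitters' processing notes, mm10 and HOMER were also used. No source used here names the aligner. The deposited pileup is an unscaled coverage signal, and the deposited fold enrichment is a ratio, (pileup + 1)/(local background + 1). The authors' −log10 p and −log10 q values set IP against input-derived local background. The depth was 52971023 and 41044888 filtered IP tags, and tags of 146 and 140 bp are longer than the extension, so pileups describe part of each fragment.

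Here pileups were divided by the filtered IP tags, and local background was solved from that ratio. Peaks that overlapped by at least 1 bp were shared, each used once with the closest summits paired. Ratio intervals are exact binomial (Clopper-Pearson, 95%). The pileup needed for a call came from the Poisson tail at the smallest deposited −log10 p of each list, and this estimate was added after the peaks were seen. The named genes were all 10 receptors with every peak, the genes nearest to those peaks (1 is not reported here), pathway genes with a peak, and the 3 genes most like the receptor with most nearest peaks. Members and gene lists were chosen with earlier results of these data known. One listed name, Cripto, matched no symbol in the RefSeq table. Motifs were searched on both strands. No genome sequence was used here, so peak sequences are not shown. Counting of peaks, pairing and intervals were tested on simulated data. Python 3.11.15, pandas 2.3.3, numpy 2.4.6 and scipy 1.17.1 were used. Alternatives were windows, a stricter q, wider peaks, a shortened stimulated list, other overlap rules and other scalings.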

Additional observations from a re-analysis of the deposited data

How the results depend on the processing

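No paired analysis was possible because each condition was deposited as 1 pooled list, and for the same reason no replicate could be left out. Most counts are small, so 1 gene or peak moves them. Receptor genes with a stimulated summit fell from 3 to 2 within 10 kb or inside the gene body. They also fell to 2 among peaks with a −log10 q of at least 5, and among peaks at least 200 bp wide. The width limit left out Bmpr2, and the other limits left out Acvr2b. Receptor genes with a summit were 2 (unstimulated) with windows of 150 or 200 kb, and 5 and 6 (stimulated), with windows added after the distances were seen. No share of all genes is given for windows of 10, 150 or 200 kb, the stricter q or the wider peaks. Changes in these receptor counts therefore cannot be read against the change over all genes. With the stimulated list shortened to 1133 peaks, 1 of 10 receptor genes (Eng) had a summit, as did 13.3% of all genes. Unstimulated receptor peaks were 2 inside the gene body and 2 among peaks at least 200 bp wide. Stimulated ones were 4 within 10 kb, 3 inside the gene body, 11 within 150 kb, 16 within 200 kb, 4 at 200 bp or wider and 3 in the shortened list. The nearest-gene counts and the share of stimulated receptor peaks with a counterpart (57.1%) were the same under the alternatives run for them. As a ratio of fold enrichments, the second Eng site in the gene body gave 0.843 and the Sh2d3c site 0.833, in place of 1.72 and 1.40 for pileup. Divided by the median of all shared pairs, the first site in the body gave 0.908 and the Sh2d3c site 0.95. Pathway genes with a summit within 10 kb were 5 and 12 of 41, with no share of all genes beside them, in place of 9 and 23 within 100 kb. In the shortened stimulated list they were 11 of 41, beside the 13.3% of all genes. Fewer peaks or smaller windows lower such counts by construction, and wider windows raise them.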
